A study of Homo sapiens with 28 samples.

Results

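The HOX genes are homeodomain transcription factors encoded in 4 clusters, HOXA on chromosome 7 (27100354 to 27200091, hg38), HOXB on chromosome 17 (48528526 to 48728750), HOXC on chromosome 12 (53938831 to 54056030) and HOXD on chromosome 2 (176092721 to 176190907). Members were the 38 protein-coding HOX genes of a fixed list, 10 in HOXA, 10 in HOXB, 9 in HOXC and 9 in HOXD, matched by gene identifier, and all 38 were found among the 62703 genes of both count tables. They were examined in MDST8 and LoVo, both human colorectal cancer cell lines. In MDST8, wild-type cells (WT) were compared with 5 TWIST1 KO clones made with CRISPR-Cas9, each grown from 1 cell and read from the library names as clone 1.1 (guide TG1), clone 2.2 (guide TG2) and clones 3.2, 3.5 and 3.6 (guide TG3), with 3 libraries per group. In LoVo, 3 libraries labelled shRNA control were compared with 3 labelled TWIST1 shRNA. One TWIST1 ChIP-seq peak list per line was also examined. No MDST8 clone that had passed through cloning without a TWIST1 guide was among the samples, so the edit and single-cell cloning cannot be told apart, and all 5 clone comparisons share the same 3 WT libraries.

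HOX proteins set position along the body axis, and the genes lie on the chromosome in the order in which they are used from head to tail. Anterior groups at the 3′ end of a cluster are active first and rostrally, central groups pattern the trunk, and posterior groups at the 5′ end pattern the caudal trunk, the hindgut and the limbs. Adult tissues and cell lines often keep such a regional HOX code, and in the distal gut HOXB13, HOXD13 and HOXA13 are posterior markers. PBX and MEIS proteins are DNA-binding partners of HOX proteins, CDX proteins act upstream of HOX genes in the caudal embryo, and Polycomb and MLL complexes keep clusters silent or active.

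The 24 RNA libraries held 17252883 to 22217009 gene counts in MDST8 and 16567606 to 20889529 in LoVo, so that a floor of 3 counts in 1 library stood for 0.135 to 0.181 CPM, the unit of gene counts scaled to a common library size. The HOX members together took 0.068 to 0.102% of the counts in MDST8 and 0.0739 to 0.0871% in LoVo. TWIST1, the targeted gene, encodes a basic helix-loop-helix factor, and its RNA was still counted in every MDST8 library, at 797 to 1034 counts in WT and 553 to 1195 in the clones. TWIST1 RNA was called lower than WT, by the thresholds given below, in clone 2.2 (log2 -0.65). In clones 1.1 (-0.31) and 3.5 (-0.18) its adjusted p was below 0.05 and its change under the fold threshold. The same held in clone 3.2, where TWIST1 RNA was higher than in WT (0.22). In clone 3.6 its log2 fold change was -0.04, with an adjusted p of 0.652 (edgeR). RNA of a gene cut by Cas9 does not check the knockout. In LoVo, TWIST1 had 0 counts in each library labelled shRNA control but 73 to 93 in each labelled TWIST1 shRNA, which goes against the labels, so each LoVo direction below is given between labels only. Of 12 colon epithelial markers, 2 (KRT8 and KRT18) were expressed in MDST8 WT and 12 in LoVo, with summed levels of 70.3 to 76.3 CPM in MDST8 WT against 8329 to 8632 CPM in the LoVo libraries labelled shRNA control. Endothelial markers were all below the expression threshold, at most 1.93 CPM summed in any library.

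Promoter sequences are shown for 4 members on which the comparisons below turn, HOXA13, HOXA9 and HOXD13, which were expressed in at least 1 LoVo group and not in MDST8, and HOXD4, which was lower in 4 clones. Each is the 250 bases before a RefSeq start (GRCh38.p14), written 5′ to 3′ on the gene's strand, and capitals mark E-box letters CANNTG, the class of motif that basic helix-loop-helix factors such as TWIST1 bind.
HOXA13, chr7:27200092-27200341, minus strand: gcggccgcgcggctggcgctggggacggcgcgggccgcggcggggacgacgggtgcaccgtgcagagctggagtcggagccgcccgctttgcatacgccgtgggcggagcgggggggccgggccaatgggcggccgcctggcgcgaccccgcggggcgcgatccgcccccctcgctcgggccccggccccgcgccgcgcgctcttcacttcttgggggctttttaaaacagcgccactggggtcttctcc
HOXA9, chr7:27165538-27165787, minus strand: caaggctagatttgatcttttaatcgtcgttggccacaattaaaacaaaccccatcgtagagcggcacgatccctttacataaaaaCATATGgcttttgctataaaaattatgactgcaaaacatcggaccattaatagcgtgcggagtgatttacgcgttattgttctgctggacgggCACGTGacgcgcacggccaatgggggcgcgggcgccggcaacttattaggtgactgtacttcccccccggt
HOXD13, chr2:176092471-176092720, plus strand: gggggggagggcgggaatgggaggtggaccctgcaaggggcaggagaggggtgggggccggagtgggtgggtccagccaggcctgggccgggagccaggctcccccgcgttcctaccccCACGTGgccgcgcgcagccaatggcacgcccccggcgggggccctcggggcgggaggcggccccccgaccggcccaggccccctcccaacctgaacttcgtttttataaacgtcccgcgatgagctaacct
HOXD4, chr2:176151300-176151549, plus strand: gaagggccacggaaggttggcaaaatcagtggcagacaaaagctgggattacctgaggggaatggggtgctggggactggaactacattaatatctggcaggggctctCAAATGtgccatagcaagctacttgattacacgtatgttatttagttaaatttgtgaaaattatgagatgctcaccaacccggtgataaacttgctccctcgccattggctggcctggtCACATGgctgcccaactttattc
The HOXA13 promoter was GC-rich (78.0%) and held no CANNTG, and the HOXD13 promoter (74.0% GC) held 1. HOXA9, at an internal RefSeq start, held 2 at 48.8% GC, and HOXD4 held 2 at 47.6% GC, against a median GC of 58% over all promoters. CANNTG reads the same on both strands, and it stood in 19 of the 26 distinct promoter sequences found for 20 members (73.1%), against 61.8% of 34788 promoters. The letters CATCTG or their reverse complement CAGATG stood in 2 of the 26 (7.69%), against 12.2%. Promoters of the other 18 members were not used here. A match of letters is not a binding site.

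A gene was taken as expressed in a group when its mean reached 1 CPM, normalized by edgeR's trimmed mean of M values (TMM) as are all CPM values here. In bulk libraries, fewer cells with a transcript and less of it per cell cannot be told apart. On this scale 22 of the 38 members were expressed in MDST8 WT, 2 from HOXA, 9 from HOXB, 7 from HOXC and 4 from HOXD. The clones expressed 21 to 24 members, and 21 members were expressed in all 6 MDST8 groups, among them every HOXB member but HOXB1. Only HOXA3, HOXA4 and HOXA6 passed the threshold in some MDST8 groups and not in others. In LoVo, 22 members were expressed in the libraries labelled shRNA control (8 from HOXA, 8 from HOXB, 2 from HOXC, 4 from HOXD) and 24 in those labelled TWIST1 shRNA (9, 9, 4 and 2). The number of expressed members was thus similar in both lines, but the clusters they came from were not.

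Below 1 CPM in all 8 groups were 8 members, HOXA2, HOXB1, HOXC5, HOXC12, HOXD1, HOXD10, HOXD11 and HOXD12, and 13 were expressed in all 8. HOXC4, HOXC8, HOXC11 and HOXD9 were expressed in MDST8 WT and in neither LoVo group. HOXA7, HOXA9, HOXA10, HOXA11, HOXA13 and HOXD13 were expressed in the LoVo libraries labelled shRNA control and in no MDST8 group. The latter are the 5′ genes of HOXA and the last gene of HOXD, used caudally and in limb and genital tissue in the embryo. By the options recorded in the file headers, counting left out reads over the exons of several genes and did not use strand, and 9 members (HOXA4, HOXA6, HOXA7, HOXA9, HOXA10, HOXA11, HOXB6, HOXC5 and HOXD1) share over 25% of their exon bases with another gene, so their levels are uncertain.

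**Figure D1:**
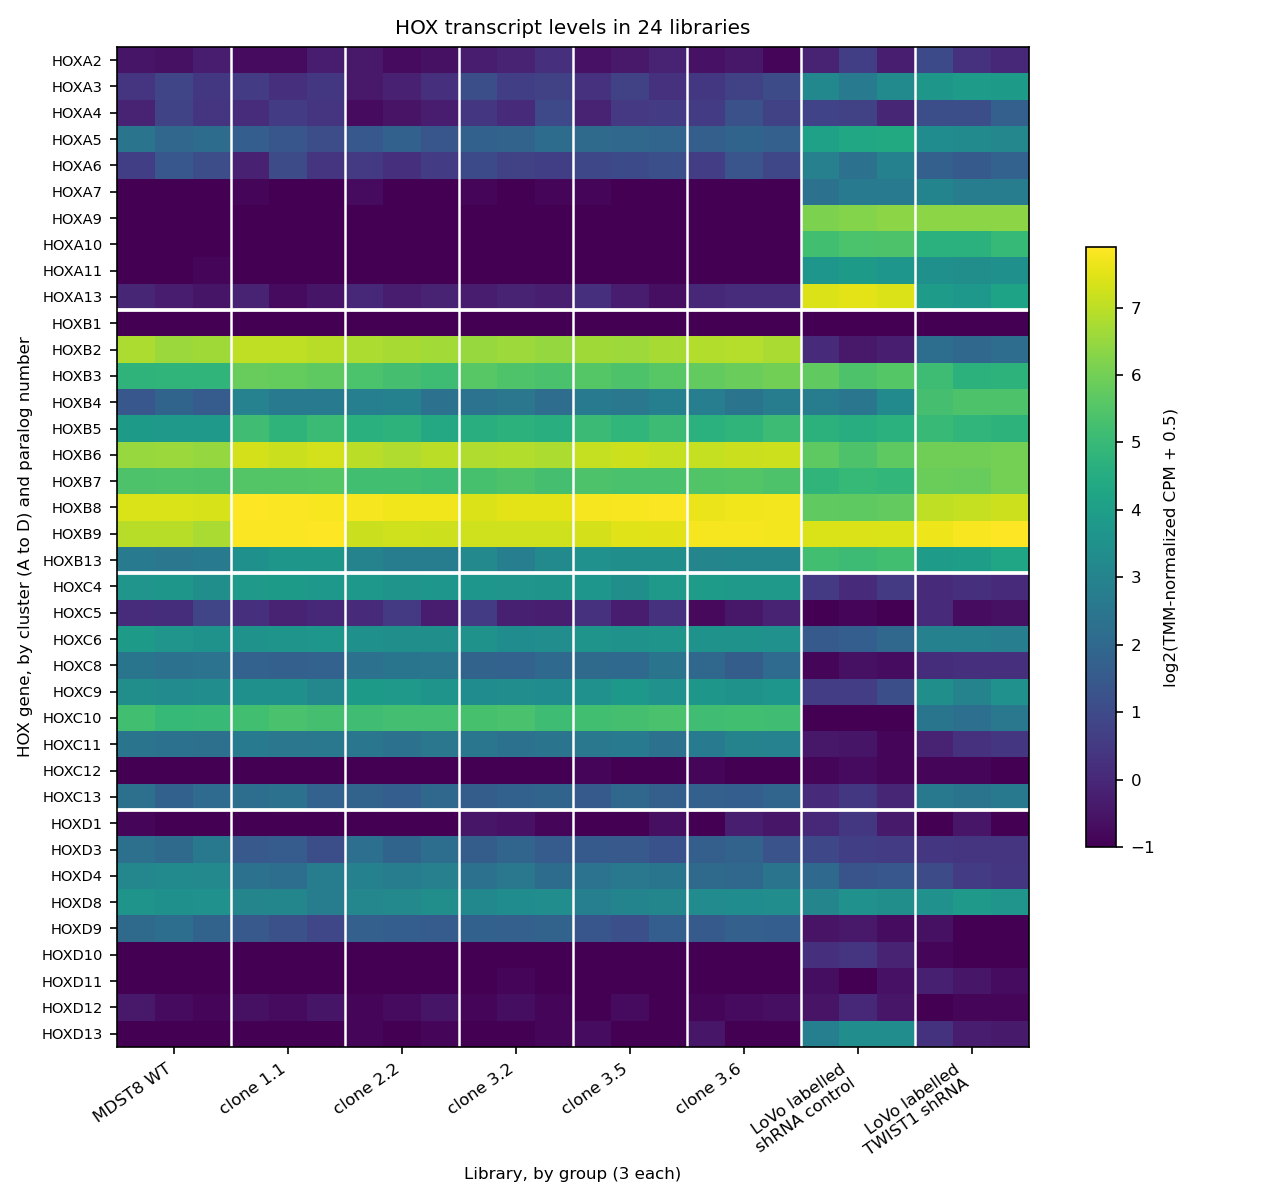
Colour shows log2(TMM-normalized CPM + 0.5) of the 38 HOX members (rows, by cluster) in the 24 RNA libraries (columns, 3 per group). The HOXB rows from HOXB3 to HOXB13 are filled in all libraries, HOXA9 to HOXA11 are filled in LoVo and at 0 or 1 count in MDST8, and HOXC10 is at 0 counts in the 3 LoVo libraries labelled shRNA control.

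Levels of different genes were compared only as CPM per kb of exon. In MDST8 WT the highest were HOXB8 at 68.6 ± 0.91 CPM per kb (mean ± SD, n = 3), HOXB9 at 45.4 ± 3.35 and HOXB2 at 41.2 ± 3.27, followed by HOXB6, HOXB7 and HOXC10. HOXB9 and HOXB2 overlapped between libraries, so their order is not resolved. HOXB2 is an anterior gene, HOXB8 a central one and HOXB9 and HOXC10 posterior ones. HOXB held 81.6% ± 0.318 of the summed HOX CPM per kb, HOXC 11.6% ± 0.527, HOXD 5.29% ± 0.16 and HOXA 1.58% ± 0.113. Posterior members (groups 9 to 13) held 25.3% ± 0.856. Most of the HOX signal of MDST8 WT thus came from HOXB.

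In the LoVo libraries labelled shRNA control, HOXB9 was highest at 65.1 ± 1.06 CPM per kb, followed by HOXA13 at 34.9 ± 1.70 and HOXA9 at 25 ± 1.66. HOXB held 59.5% ± 1.23 and HOXA 35.8% ± 0.984, and posterior members held 58.6% ± 1.53. In the libraries labelled TWIST1 shRNA, HOXB9 stood at 85.5 ± 6.39 and HOXB8 at 58.2 ± 3.83 CPM per kb, HOXB held 77.2% ± 0.949, HOXA 17% ± 0.533, and posterior members 43.2% ± 0.768. The HOXB, HOXA and posterior shares of the LoVo groups did not overlap between libraries. These shares are fractions of 1 total, so a rise in one lowers the others.

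Summed as CPM, HOXA stood at 8.06 in MDST8 WT, 345 in the LoVo libraries labelled shRNA control and 169 in those labelled TWIST1 shRNA. HOXB stood at 567, 413 and 603, HOXC at 80.6, 5.85 and 28.8 and HOXD at 28.1, 23.8 and 14.8.

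**Figure D2:**
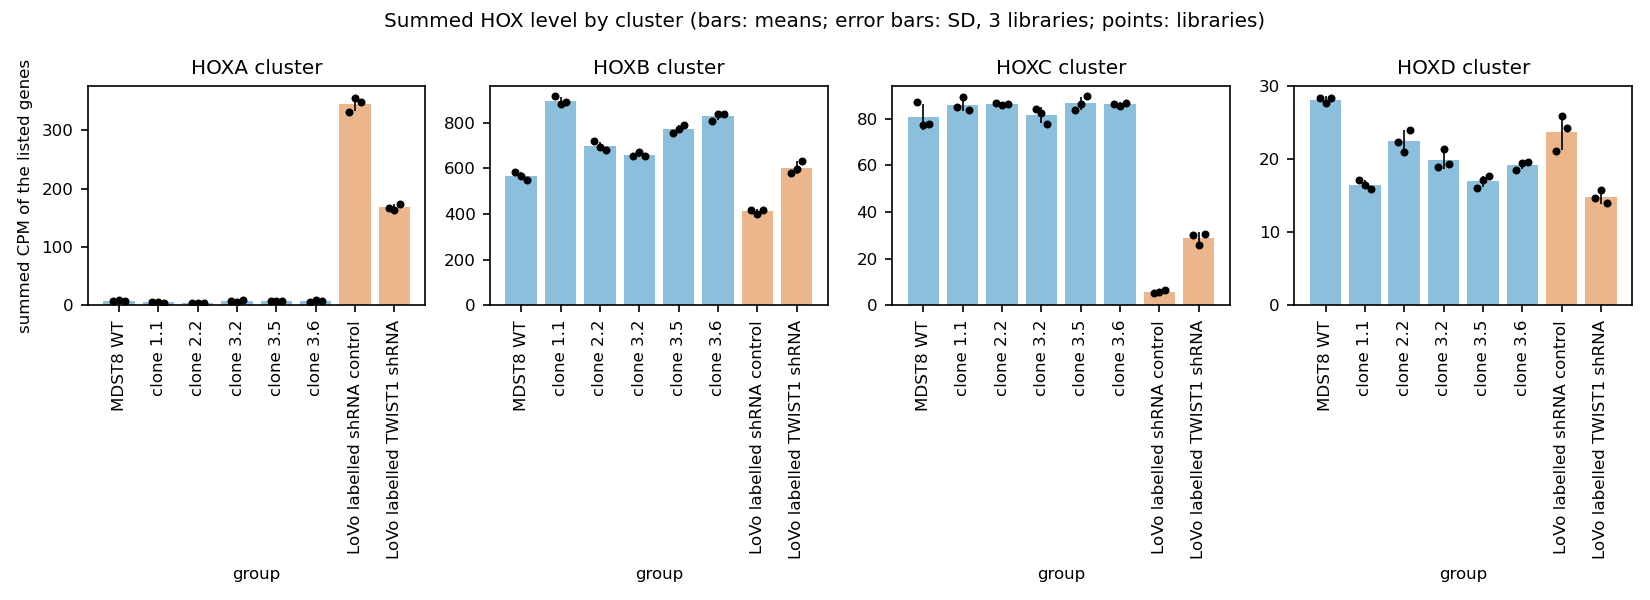
Summed CPM of the listed genes of each HOX cluster (1 panel each, axes starting at 0) in the 8 groups, as the mean of 3 libraries with SD bars and the libraries as points. HOXA is near 0 in MDST8 and 345 in the LoVo libraries labelled shRNA control, HOXC is lowest in those LoVo libraries (5.85), and HOXB is above WT (567) in the 5 clones.

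The lines were compared in 1 fit over the 24 libraries with edgeR's quasi-likelihood test, and a member was called when its adjusted p was below 0.05 and its absolute log2 fold change above 0.58. Of the 30 members tested, 26 differed between MDST8 WT and the LoVo libraries labelled shRNA control, 13 higher and 13 lower in MDST8, where 66.5% of all genes tested were called (33.4% higher, 33.1% lower). Against the libraries labelled TWIST1 shRNA 23 were called, 9 higher and 14 lower in MDST8, with 63.0% of all genes called (30.4% higher, 32.5% lower). Of the 30 members, 13 passed the filter on low counts in 1 of the lines only, and these gave 12 and 13 of the calls, so the counts partly restate the filter. Each line is 1 line, so line and any batch cannot be told apart.

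The posterior HOXA genes gave the widest gaps. HOXA9 was at 0 counts in the 3 WT libraries and at 70.6, 75.9 and 80.6 CPM in the LoVo libraries labelled shRNA control, at least 491-fold higher against a floor of 3 counts per library. HOXA10 was also at 0 counts in WT, and the LoVo level was at least 260-fold higher at 36.8, 41.5 and 41.9 CPM. HOXA11 had 1 count in the WT libraries together, and the LoVo level was 759 times as high with a 95% counting interval of 136 to 29970. HOXD13 and HOXA7 were at 0 counts in WT and at least 56.7-fold and 34.8-fold higher in those LoVo libraries. HOXA13 was at 0.0935 to 0.646 CPM over the 18 MDST8 libraries, and for each of these genes every LoVo library labelled shRNA control was above every WT library.

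In the other direction, HOXC10 was at 36.3, 30.8 and 31.6 CPM in WT and at 0 in the LoVo libraries labelled shRNA control, at least 194-fold higher in WT. HOXC8 was 43.4-fold higher in WT (interval 19.9 to 118) and HOXC11 26.8-fold higher (14.1 to 58.7). HOXB2 was at 110, 94.9 and 98.6 CPM in WT and at 0.554, 0.255 and 0.344 CPM in those LoVo libraries, a fitted log2 difference of 8.05. Intervals and floors cover counting error only. HOXC8, HOXC10 and HOXC11 are central to posterior HOXC genes, and HOXB2 is a hindbrain gene in the embryo.

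In the MDST8 clones the question was which HOX members differed from WT, and how alike the clones were. The 18 MDST8 libraries were fitted together, and 22 of the 38 members passed the filter on low counts. HOXA6 passed although at least 1 group was below 1 CPM. The other 16 members, most of them HOXA and HOXD genes, were not tested. HOXA9, HOXA10, HOXB1 and HOXD10 were at 0 counts in all 18 MDST8 libraries. The p-values measure the spread between libraries of 1 clone, which may be technical. Fibroblast and mesothelial markers summed to 670 to 680 CPM in the WT libraries and 334 to 1335 in the clone libraries. Most of that sum was COL1A1, at 607 CPM in WT and 311 to 1204 CPM in the clones. FAP (42.2 CPM in WT, 16.95 to 34.38 in the clones), PDGFRA (1.18, 0.304 to 0.590) and WT1 (2.99, 0.0457 to 0.279) were lower in every clone. PDGFRB was higher in every clone (1.61, 1.72 to 4.03). Colon epithelial markers summed to 64 to 135 CPM in the clones. Leukocyte markers summed to at most 1.64 CPM in MDST8 (2.07 in LoVo), and the part of these differences in the HOX values was not tested.

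Clone 1.1 had the most called members, 13 of 22 with 6 higher and 7 lower, where 19.5% of all genes were called (12% higher, 7.49% lower). Clone 2.2 had 4 (2 higher, 2 lower) against 14.7% of all genes (8.05% and 6.64%), and clone 3.2 had 5 (3 and 2) against 17% (10.9% and 6.09%). Clone 3.5 had 9 (5 and 4) against 18.5% (11.2% and 7.25%), and clone 3.6 had 8 (6 and 2) against 27% (15.3% and 11.7%). The median log2 fold change of the tested members lay between -0.06 and 0.16 and that of all genes between -0.01 and 0, with calls in both directions in every clone. Higher calls were mainly HOXB genes and lower calls mainly HOXD and HOXA genes.

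HOXB4 and HOXB5 were higher than WT in all 5 clones, which 3.17% of all genes tested were. By edgeR 0 members were lower in all 5 clones (1.06% of all genes), also 0 by DESeq2 and by limma with voom, whereas 2 (HOXD4 and HOXD8) were at an unadjusted edgeR p below 0.05 with no fold threshold, as were 14.6% of all genes. Read the same way, 6 members (HOXB3, HOXB4, HOXB5, HOXB6, HOXB8 and HOXB9) were higher in all 5, as were 13.6% of all genes. In at least 1 clone 7 members were higher (22.2% of all genes), 7 were lower (19.7%) and 8 were called in no clone (60.4%). The 8 were HOXB2, HOXB7, HOXB8, HOXC4, HOXC6, HOXC9, HOXC10 and HOXC13.

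HOXB4, a central gene active in blood stem cells and the hindbrain, stood at 2.17, 3.19 and 2.48 CPM in WT. It was at 7.26, 5.71 and 5.96 CPM in clone 1.1, at 6.61, 6.98 and 4.55 in clone 2.2, at 4.78, 5.25 and 4.07 in clone 3.2, at 6.05, 5.46 and 6.72 in clone 3.5 and at 6.53, 4.81 and 6.32 in clone 3.6. Every clone library was above every WT library. The log2 fold changes were 0.84 ± 0.19 (SE) in clone 3.2 and 1.17 to 1.26 in the other clones, with adjusted p from 2.86e-07 to 0.000261 (edgeR).

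HOXB5, which lies next to HOXB4 and is active in the lung and gut of the embryo, was at 14, 13.2 and 13.7 CPM in WT. The clone libraries held 35.6, 27.4 and 32.9 CPM in clone 1.1, 24.3, 26.3 and 20.4 in clone 2.2, 23.6, 25.7 and 24.1 in clone 3.2, 33.2, 28.6 and 34.0 in clone 3.5 and 25.2, 27.5 and 33.7 in clone 3.6. The log2 fold changes ran from 0.79 to 1.22, with adjusted p from 1.79e-12 to 1.02e-07 (edgeR). HOXB-AS3, an antisense RNA of the same stretch, was also called higher in all 5 clones (log2 0.93 to 1.42), at 11.3 CPM in WT and 21.6 to 30.5 CPM in the clones. HOXB5 shares 3.9% of its exon bases with HOXB-AS3, and by the counting options above reads over those bases were left out for both genes.

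HOXB3, an anterior gene of the hindbrain, was at 27.4, 27.5 and 28.0 CPM in WT, at 56.0, 54.8 and 51.5 in clone 1.1, at 40.8, 38.4 and 34.4 in clone 2.2, at 47.2, 43.5 and 40.1 in clone 3.2, at 46.1, 42.4 and 47.6 in clone 3.5 and at 53.3, 57.7 and 63.2 in clone 3.6. It was called higher in 4 clones (log2 0.65 to 1.07), and in clone 2.2 its log2 fold change of 0.44 stayed under the threshold on fold. HOXB3 shares 11.7% of its exon bases with other genes.

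HOXB6, a central gene, was at 91.6, 93.6 and 88.8 CPM in WT, at 161, 147 and 155 in clone 1.1, at 127, 115 and 125 in clone 2.2, at 114, 116 and 111 in clone 3.2, at 139, 147 and 140 in clone 3.5 and at 139, 146 and 148 in clone 3.6. HOXB9, the first posterior gene of the cluster, was at 124, 121 and 108 CPM in WT, at 229, 230 and 237 in clone 1.1, at 146, 151 and 148 in clone 2.2, at 152, 151 and 154 in clone 3.2, at 162, 174 and 179 in clone 3.5 and at 218, 220 and 214 in clone 3.6. HOXB6 was called in clones 1.1, 3.5 and 3.6 (log2 0.75, 0.63 and 0.66) and HOXB9 in clones 1.1 and 3.6 (0.98 and 0.89). Of HOXB6's exon bases 32.9% are shared with other genes.

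HOXB13, the last gene of the cluster and a marker of prostate and distal colon, was at 5.94, 5.32 and 6.02 CPM in WT. It was at 10.5, 12.6 and 12.7 CPM in clone 1.1, at 7.33, 6.30 and 6.36 in clone 2.2, at 8.73, 6.46 and 8.81 in clone 3.2, at 10.8, 10.3 and 10.3 in clone 3.5 and at 7.80, 7.89 and 8.03 in clone 3.6. It was called in clones 1.1 and 3.5 (log2 1.05 and 0.86). HOXB7 and HOXB8 were called in no clone, although every clone library of HOXB8 (174 to 239 CPM) was above the 3 WT libraries (162 to 166). Summed over the cluster, HOXB was at 567 ± 16.8 CPM in WT and 661 to 896 CPM in the clones, lowest in clone 3.2 and highest in clone 1.1.

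In all, 7 of the 22 members (HOXB3, HOXB4, HOXB5, HOXB6, HOXB8, HOXB9 and HOXB13) lay above the 3 WT libraries in all 15 clone libraries, against 12.8% of all genes tested. Below WT in all 15 lay 3 members, HOXD4, HOXD8 and HOXD9, against 14.7%. Clone by clone, the share of all genes wholly above WT was 31.9%, 29.6%, 30.9%, 31.9% and 35.2% in clones 1.1, 2.2, 3.2, 3.5 and 3.6, and of the 22 members 11, 8, 7, 8 and 10 were. Wholly below WT were 33.9%, 31.6%, 33.6%, 32.7% and 35.3% of all genes and 6, 7, 7, 5 and 6 members. In the plot of log2 fold changes by clone, HOXB3 to HOXB6, HOXB8, HOXB9 and HOXB13 lie to the right of 0 and the tested HOXD genes to the left in each clone.

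**Figure D3:**
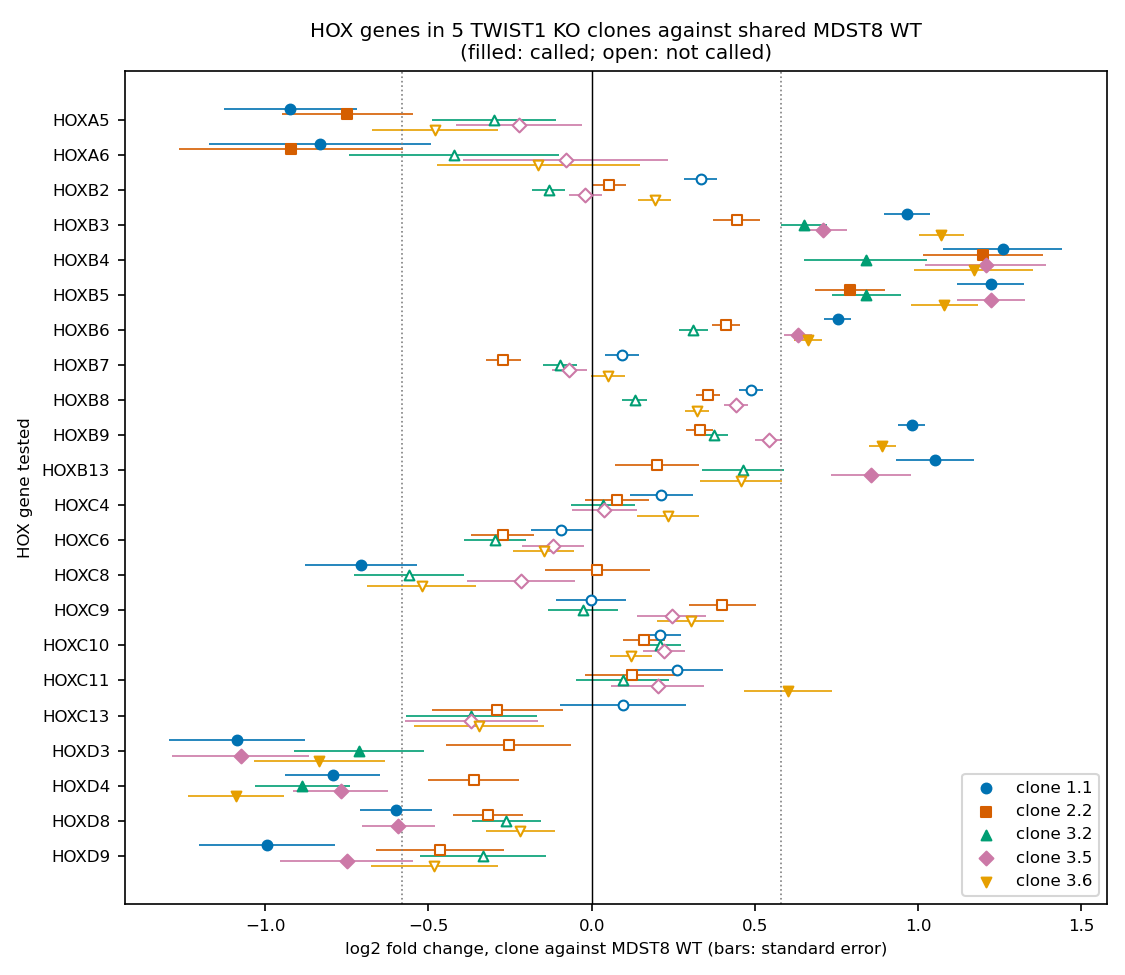
Log2 fold change of the 22 tested HOX members against MDST8 WT (x axis, dotted lines at the fold threshold) in the 5 TWIST1 KO clones, with bars of 1 SE, filled symbols for called members and open ones for others. HOXB4 and HOXB5 are filled in the 5 clones (0.79 to 1.26), and HOXD4 is filled in 4 clones (-0.77 to -1.09) and open in clone 2.2 (-0.36).

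HOXD4, a central HOXD gene, was at 8.17, 9.01 and 8.65 CPM in WT, at 4.61, 4.16 and 6.22 in clone 1.1, at 6.97, 6.40 and 6.89 in clone 2.2, at 4.67, 5.39 and 3.93 in clone 3.2, at 4.75, 5.46 and 5.00 in clone 3.5 and at 3.77, 3.52 and 4.83 in clone 3.6. HOXD3, its anterior neighbour, was at 4.35, 3.75 and 5.61 CPM in WT, at 2.28, 2.48 and 1.69 in clone 1.1, at 4.23, 3.17 and 4.18 in clone 2.2, at 2.58, 3.23 and 2.54 in clone 3.2, at 2.35, 2.33 and 1.87 in clone 3.5 and at 2.72, 3.03 and 1.95 in clone 3.6. Both were called lower in clones 1.1, 3.2, 3.5 and 3.6 and not in clone 2.2, with log2 fold changes from -0.77 to -1.09 for HOXD4 and from -0.71 to -1.09 for HOXD3. HOXD3 in clone 3.2 lost its call without WT library C, at -0.52.

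HOXD9, a posterior gene, was at 3.77, 4.15 and 3.08 CPM in WT, at 2.33, 1.82 and 1.37 in clone 1.1, at 2.84, 2.64 and 2.54 in clone 2.2, at 2.91, 2.78 and 3.06 in clone 3.2, at 2.11, 1.75 and 2.68 in clone 3.5 and at 2.36, 2.83 and 2.69 in clone 3.6. It was called lower in clones 1.1 (log2 -0.99) and 3.5 (-0.75), as was HOXD8 (-0.60 and -0.59), whose values sit at the fold threshold and dropped under it without WT library A (-0.55 and -0.54). Summed over the cluster, HOXD was at 28.1 ± 0.428 CPM in WT and 16.5 to 22.5 CPM in the clones. HOXC as a whole stood at 80.6 ± 5.73 CPM in WT and 81.5 to 86.4 CPM in the clones, with HOXC8 lower in clone 1.1 (-0.71) and HOXC11 higher in clone 3.6 (0.60, under the threshold at 0.57 and 0.56 without clone 3.6 library B or C) as its only calls.

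The HOXA genes were low in MDST8. HOXA5, a central gene of lung and gut mesenchyme, was at 4.88, 3.29 and 3.94 CPM in WT, at 2.65, 2.1 and 1.64 in clone 1.1, at 2.22, 2.88 and 2.12 in clone 2.2, at 2.91, 3.05 and 3.88 in clone 3.2, at 3.70, 3.5 and 3.23 in clone 3.5 and at 2.77, 3.12 and 2.79 in clone 3.6. It was called lower in clones 1.1 (log2 -0.92) and 2.2 (-0.75). HOXA6 was also called lower in these clones (-0.83 and -0.92), but 40.1% of its exon bases are shared and both calls were lost without WT library B (-0.56 and -0.65).

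HOXA3 and HOXA4 did not pass the filter in MDST8 and were not tested. HOXA3 was at 0.795, 1.32 and 0.860 CPM in WT, at 0.953, 0.655 and 0.844 in clone 1.1, at 0.258, 0.391 and 0.689 in clone 2.2, at 1.70, 1.08 and 1.15 in clone 3.2, at 0.705, 1.17 and 0.707 in clone 3.5 and at 0.862, 1.19 and 1.58 in clone 3.6. HOXA4 was at 0.424, 1.27 and 0.809 CPM in WT, at 0.583, 0.982 and 0.791 in clone 1.1, at 0.103, 0.195 and 0.318 in clone 2.2, at 0.824, 0.539 and 1.44 in clone 3.2, at 0.411, 0.900 and 1.01 in clone 3.5 and at 0.953, 1.83 and 1.16 in clone 3.6. For both genes the 3 libraries of clone 2.2 were below the 3 of WT.

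Tests between the clones asked how they differed from each other. Of the 22 members, 8 differed among the 5 clones with a largest difference above 0.58 on the log2 scale (edgeR F test), against 32.0% of all genes. These were HOXA5 (0.70), HOXB3 (0.63), HOXB9 (0.65), HOXB13 (0.85), HOXC8 (0.72), HOXD3 (0.83), HOXD4 (0.73) and HOXD9 (0.66). Among the clones made with guide TG3, 0 of the 22 were called, against 20.3% of all genes, although 11 had an unadjusted p below 0.05 and 11 an adjusted p below 0.05. The largest difference among them was 0.52, for HOXB9 (adjusted p = 8.27e-13). The other count tools run, DESeq2 and voom, also gave 0, and limma on log2(count + 1) gave 1.

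The LoVo comparison asked which members differed between the libraries labelled TWIST1 shRNA and those labelled shRNA control. Of 25 members tested, 17 were called, 10 of them higher under the label TWIST1 shRNA and 7 lower, where 52.7% of all genes tested were called (26.6% higher, 26.1% lower). The median log2 fold change of the members was 0.35, against 0.01 for all genes. HOXA4, HOXB2, HOXC10, HOXC13 and HOXD13 passed the filter with 1 group below 1 CPM. These 5 passed by their level in the other group and all were called, so the counts of calls partly restate the filter. The other 13 members were not tested. The mitochondrial share of counts was 3.49 to 3.96% under the shRNA control label. Under the other label it was 10.89% in library 1, 6.24% in library 2 and 5.47% in library 3, and the part of this in the HOX values was not tested.

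The terminal posterior genes of HOXA and HOXD were lower in the libraries labelled TWIST1 shRNA. HOXA13, which patterns the hindgut, was at 174, 187 and 171 CPM in the libraries labelled shRNA control and at 14.4, 13.1 and 17.2 in those labelled TWIST1 shRNA (log2 -3.54 ± 0.09, adjusted p = 1.26e-15, edgeR). HOXD13 was at 6.65, 9.69 and 9.87 CPM and at 0.731, 0.293 and 0.279 CPM (-4.26 ± 0.31, adjusted p = 2.07e-09, edgeR). In both genes every library of one group was below every library of the other. HOXB13 (-1.12), HOXD4 (-1.11), HOXA6 (-1.13), HOXA5 (-1.05) and HOXB3 (-0.66) were also lower, but HOXB3 reached only the fold threshold (-0.58) without the library A labelled shRNA control.

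HOXC9, HOXC10 and HOXC13, posterior genes, and several HOXB genes were higher. HOXC10 had 0 counts in the 3 LoVo libraries with the shRNA control label and stood at 5.01, 4.21 and 5.36 CPM in those labelled TWIST1 shRNA, at least 28.6-fold higher against 3 counts per library. HOXC13 was at 0.554, 0.867 and 0.459 CPM and at 5.54, 4.86 and 5.58 CPM (log2 3.08 ± 0.28, adjusted p = 2.97e-08, edgeR), and HOXC9 at 1.05, 1.02 and 1.72 CPM and at 10.3, 7.49 and 10.8 CPM (2.94 ± 0.24, 7.69e-09). HOXC6, a central gene, was at 2.34, 2.65 and 3.39 CPM and at 7.1, 6.96 and 6.47 CPM (1.32 ± 0.20). Summed over the cluster, HOXC was at 5.85 CPM in the libraries labelled shRNA control and 28.8 CPM in the others.

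HOXB2 was at 0.554, 0.255 and 0.344 CPM in the libraries labelled shRNA control and at 4.13, 3.39 and 4.08 in those labelled TWIST1 shRNA (log2 3.36 ± 0.33). HOXB4 was at 6.34, 5.15 and 8.78 CPM and at 38.4, 42.0 and 42.0 CPM (2.63 ± 0.14, adjusted p = 2.16e-11, edgeR), and HOXB8 at 52.2, 51.4 and 54.2 CPM and at 131, 140 and 149 CPM (1.44 ± 0.07). HOXB7 (1.05) and HOXA3 (0.85) were also called higher. HOXA4 was at 1.23, 1.17 and 0.459 CPM and at 1.72, 1.70 and 2.85 CPM (1.15 ± 0.36), a call that was lost without the library C labelled shRNA control or the library 3 labelled TWIST1 shRNA. HOXB5, HOXB6, HOXB9, HOXD8, HOXA7, HOXA9, HOXA10 and HOXA11 were not called. HOXA9 stood at 70.6 to 80.6 CPM and 80.9 to 81.8 CPM, and HOXA10 at 36.8 to 41.9 and 24.9 to 30.9 CPM (log2 -0.54, under the fold threshold). The libraries of the 2 groups did not overlap in any of the 25 tested members, 16 higher and 9 lower, as in 40.0% and 39.9% of all genes.

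**Figure D4:**
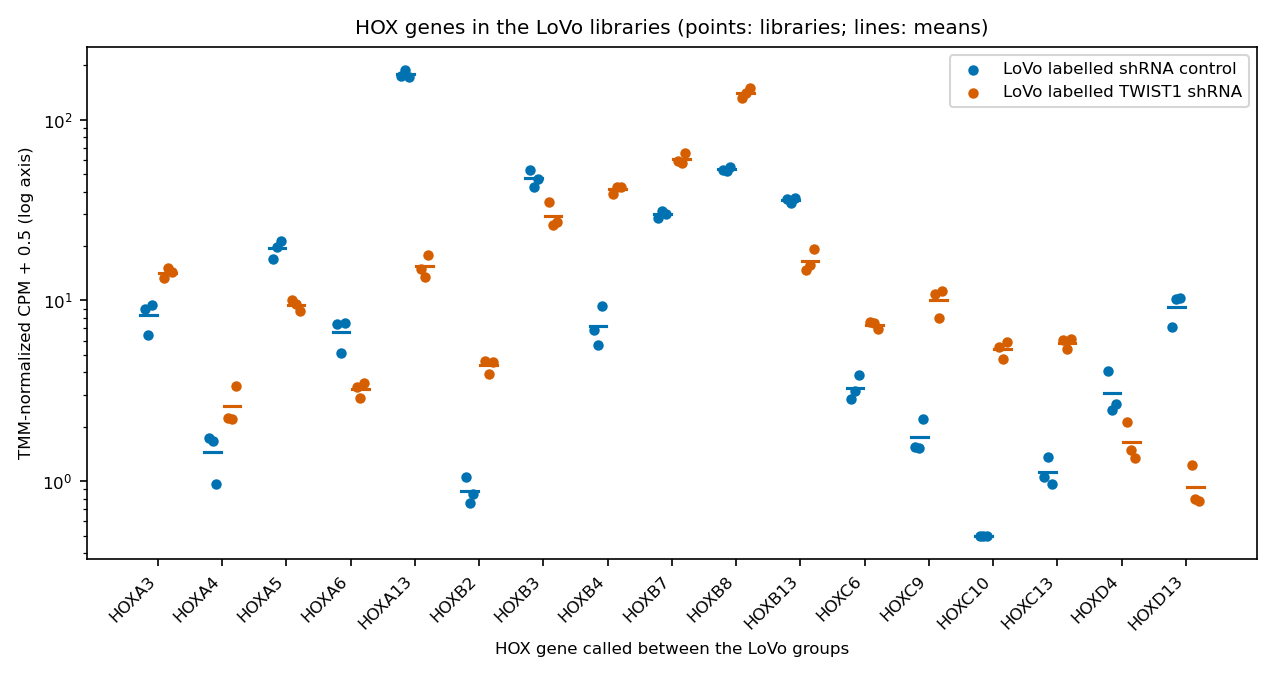
TMM-normalized CPM + 0.5 (log axis) of the 17 HOX members called in LoVo, with each library as a point and the group mean as a line, in the 3 libraries labelled shRNA control and the 3 labelled TWIST1 shRNA. The 7 lower members include HOXA13 and HOXD13, the 10 higher ones include HOXB4 and HOXC9, and HOXC10 sits at 0 counts in the libraries labelled shRNA control.

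The effect in LoVo was also set against the mean effect of the 5 MDST8 clones, by a test of the difference in the fit over 24 libraries (edgeR). Of 30 members 17 differed, 13 with a higher value in LoVo and 4 with a lower one, against 48.9% of all genes (25.3% higher, 23.6% lower). HOXA13 (log2 difference -3.76) and HOXB13 (-1.76) were the lowest of those called and HOXC13 (3.30) and HOXB2 (3.25) the highest apart from HOXC10. Of the 30 members, 13 passed the filter on low counts in 1 line only. HOXA3, HOXA4 and HOXA13 did not pass it in MDST8, so the clone effects they are set against rest on low counts.

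An exact two-sided permutation test of single members, 3 libraries against 3, cannot go below p = 0.10, the value that any 2 groups without overlap give.

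Regulators and neighbours of HOX genes were read from fixed lists, each tested over all genes, of which 8.05 to 15.3% were called higher and 6.09 to 11.7% lower per clone, and 26.6% higher and 26.1% lower in LoVo. Of 7 tested PBX, MEIS and PKNOX cofactors, 0 were called in any clone with edgeR (2 to 4 per clone had an unadjusted p below 0.05), whereas in LoVo MEIS3 (log2 1.35) was higher and PBX3 (-0.86) lower in the libraries labelled TWIST1 shRNA. The CDX and hindgut factors gave 0 to 2 higher and 0 to 2 lower of 8 per clone, with OSR2 higher in 4 clones. In LoVo 7 of 9 were lower and 0 higher. CDX2, the intestinal regulator upstream of HOX genes, fell there from 264 ± 13 to 31.5 ± 3.02 CPM (-3.04 ± 0.07, adjusted p = 1.3e-15, edgeR), and CDX1 from 27.4 ± 3.70 to 3.85 ± 0.95 CPM (-2.80 ± 0.16). In MDST8, CDX1 was at 0 counts in the 18 libraries and CDX2 at 0 or 1 count. PRAC1, a distal gut marker next to HOXB13, had at most 10 counts in any library. In LoVo under the TWIST1 shRNA label the colon epithelial markers summed to 4741 to 5398 CPM against 8329 to 8632 in those labelled shRNA control. Fibroblast and mesothelial markers summed to 203 to 226 CPM against 16.1 to 21.9. Most of this was MSLN (149 CPM against 11.3) and COL1A1 (65.1 against 3.19). PDGFRB (0.669 against 1.63), UPK3B (1.17 against 2.66), LUM, WT1 and PDGFRA were lower, and FAP and DCN were at 0 in both. Of the 10 markers 3 were expressed, against 4 under the shRNA control label. The part of these markers in the HOX values was not tested.

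The antisense and intergenic RNAs of the clusters numbered 7 tested in MDST8, of which 2 to 5 were higher and 0 or 1 lower per clone. HOXC-AS1 was higher in 4 clones and HOTAIR and HOXB-AS1 in 3. In LoVo 3 of 9 were higher, HOXA-AS2 (1.94), HOXA10-AS (1.17) and HOTAIRM1 (0.76), and 5 were lower. Among the lower were HOTTIP (-3.68), HOXA11-AS (-2.91) and HAGLR (-2.56), which lie beside HOXA13, HOXA11 and the HOXD genes. Of 29 Polycomb genes 0 to 2 were higher and 0 to 4 lower per clone, and in LoVo 8 were higher, JARID2 (2.1), PHC2 (1.59) and RING1 (1.44) among them, and 1 lower. Of 19 MLL and related genes 0 to 2 were higher and 0 or 1 lower per clone, and in LoVo 3 were higher and 4 lower. KDM6B, a demethylase that removes the Polycomb mark, was called higher in 4 clones (0.47 to 0.92 over the 5), as was AFF4, an elongation factor (0.54 to 0.69).

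Of 9 tested genes of retinoic acid signalling, which switches on anterior HOX genes in the embryo, 1 to 3 were higher and 0 or 1 lower per clone. CYP26B1, which breaks retinoic acid down, was higher in 4 clones, with log2 fold changes from 0.56 to 4.80 over the 5, and CRABP2, a carrier of retinoic acid, was higher in 4 (-0.45 to 1.96 over the 5). In LoVo 6 of 14 were higher and 4 lower. Among 8 genes that flank the clusters, 2 to 4 were higher and 0 lower per clone, and CALCOCO1, next to HOXC, was called higher in all 5 (0.77 to 1.06). The neighbours gave 3 higher and 4 lower of 10 in LoVo, with EVX1, next to HOXA13, at -3.17.

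TWIST1 ChIP-seq was listed as 338877 peaks in MDST8 and 333621 in LoVo, called at a nominal p below 0.05 from 1 ChIP library per line, so no replicate error can be given. Within 3000 bp of the outermost start, a peak was listed for 31 of the 38 members in MDST8 (81.6%, against 63.1% of all genes and 70.9% of protein-coding genes) and for 23 in LoVo (60.5%, against 55.7% and 57.3%). TWIST1 RNA averaged 45.8 CPM in MDST8 WT, 0 in the LoVo libraries labelled shRNA control and 4.74 in those labelled TWIST1 shRNA. How far the LoVo list marks TWIST1 binding was not tested. Both lines listed a peak for 17 members, MDST8 alone for 14, LoVo alone for 6 and neither for 1. The peaks were weak. At q of at most 0.05 the MDST8 and LoVo lists kept 1075 and 1550 peaks, of which 0 lay in a HOX cluster.

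The strongest peak near a HOX start was at HOXC12 in MDST8, with a fold enrichment of 4.10 and a -log10 p of 5.32, against a highest -log10 p of 52.8 in the whole list. In LoVo it was at HOXB2, with a fold enrichment of 3.5 and a -log10 p of 4.60, against 81.0. HOXA9 and HOXA10 share a MDST8 peak (fold 3.88, -log10 p 4.99) though neither had a count in MDST8 RNA. HOXB4, called higher in the 5 clones, had no listed MDST8 peak in its window, and HOXB5 had 2 (fold up to 3.29). Peaks thus stood both at members with and without RNA.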

How the data were processed

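Poly(A) RNA-seq was available for 24 libraries and TWIST1 ChIP-seq peaks for 2. The raw counts per gene were made by the authors with Trim Galore 0.6.6, HISAT2 2.1.0 (hg38) and featureCounts 2.0.0 on GENCODE 43, and were deposited unnormalized. Per the submitters' notes SAMtools 1.6 was also used. Peaks were called by the authors with Bowtie2 2.4.5 and MACS2 2.2.7.1 on 1 ChIP library per line, and the deposited lists hold an enrichment fold, a -log10 p, a -log10 q and a score. Per the file headers the counting command set no option for strand, for reads over several genes or for reads mapped to several places, so the defaults applied, although the libraries were directional.

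Each line's counts were filtered at a geometric mean of (RPM + 1) minus 1 of at least 1, leaving 13706 genes in MDST8, 14270 in LoVo and 15844 in either. Tests were edgeR 4.0.16 quasi-likelihood fits with TMM factors (R 4.3.3), with Benjamini-Hochberg adjustment over all genes tested; a call needed an adjusted p below 0.05 and a log2 fold change beyond 0.58 in size. The SE was the log2 fold change over the square root of F. Limma 3.58.1 and DESeq2 1.42.0 were alternatives. The replicate libraries were compared for duplicates by a chi-square per degree of freedom over genes, and none was found. Library 1 labelled TWIST1 shRNA stood apart from libraries 2 and 3 of its group (20.64 and 31.53). Libraries 2 and 3 gave 4.44, and the other groups gave at most 6.0. On simulated counts, 96.5% of 2-fold and 99.5% of 4-fold changes were recovered for clone 3.6 against WT, and 90.5% and 99.5% for LoVo. For MDST8 WT against the LoVo libraries labelled shRNA control the shares were 85.5% and 97.5%. Each share is over 200 changed genes among all tested and was not given for HOX members alone.

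Per-library values were given for the 12 expressed members with the largest range over the MDST8 groups and the 10 with the largest called LoVo fold change. From each gene list, up to 4 genes called the same way in the most clones were named. HOXB-AS3 and TWIST1, CDX1 and CDX2 were named in addition where a result turned on them. The members and lists were chosen with earlier results of these data known. Some genes are not reported here.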

Additional observations from a re-analysis of the deposited data

Results flagged for a closer look

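The difference between the LoVo libraries (labelled TWIST1 shRNA minus labelled shRNA control) and the mean of the 5 MDST8 clones minus WT was tested for 30 members in 1 edgeR fit over the 24 libraries, and 17 were called, 13 higher and 4 lower in LoVo, where 48.9% of all genes were called (25.3% higher, 23.6% lower). TWIST1 counts go against the LoVo labels, so these differences are between labels. In HOXA the log2 differences were 1.02 for HOXA3, 1.40 for HOXA4 and -3.76 for HOXA13 (adjusted p = 2.46e-12, edgeR). In HOXB they were 3.25 for HOXB2, -1.46 for HOXB3, 1.46 for HOXB4, -0.81 for HOXB5, 1.08 for HOXB7, 1.06 for HOXB8 and -1.76 for HOXB13. In HOXC they were 1.47 for HOXC6, 2.85 for HOXC8, 2.73 for HOXC9, 1.64 for HOXC11, 3.30 for HOXC13 and 9.37 for HOXC10, whose LoVo libraries labelled shRNA control were at 0 counts, so that its value depends on the prior count. HOXC8 and HOXC11 were below 1 CPM in both LoVo groups. HOXA3, HOXA4 and HOXA13 did not pass the filter on low counts in MDST8, so their clone effects rest on low counts. In HOXD the difference was 0.71 for HOXD8. HOXB4 was called higher in LoVo and in the 5 clones, whereas HOXB3 and HOXB13 were lower in LoVo and higher in 4 and 2 clones.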

How the results depend on the processing

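The counts of called members stayed within 1.5 times under DESeq2, limma with voom, RLE factors, other filters and fits of the compared groups alone, except as follows. With no fold threshold, clone 2.2 gave 15, clone 3.2 gave 14, clone 3.6 gave 16, the test over the 5 clones 16 and that over the TG3 clones 11. Limma on log2(count + 1) gave 1 for the TG3 clones in place of 0. Leaving out 1 library gave 11 to 13 in clone 1.1, 3 to 4 in clone 2.2, 4 to 6 in clone 3.2, 9 in clone 3.5, 7 to 9 in clone 3.6, 7 to 10 over the 5 clones, 0 to 1 over the TG3 clones (1 without clone 3.6 library A), 16 to 17 in LoVo, and 26 and 22 to 24 between the lines. The split of clone 2.2 (2 higher, 2 lower) was 2 and 1 on log2(count + 1) and 2 and 4 without a filter or with filterByExpr. Of the 105 called member comparisons, 22 of their alternative values fell short of a call, in 10 comparisons (HOXA4, HOXA6, HOXB3, HOXB6, HOXC11, HOXD3 and HOXD8), and 0 reversed. The cause was not tested.

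The library letters of WT and the clones did not pair (r from -0.106 to 0.12, 1 of 15 pairs above 0.1), and a fit with the replicate block gave 13, 4, 5, 9 and 8 members in the clones, 8 over the 5 clones and 0 over the TG3 clones, as without it. For MDST8 WT and the LoVo libraries labelled shRNA control, which share letters across lines, a fit of these libraries alone gave 26 members with the block and 26 without, both added after seeing the data. No paired analysis was possible because no numbers are shared between the LoVo groups, or between MDST8 WT and the LoVo libraries labelled TWIST1 shRNA.

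Shares of HOX CPM without division by exon length were 1.18% HOXA, 82.9% HOXB and 4.12% HOXD in MDST8 WT. In the LoVo libraries labelled shRNA control they were 43.8% HOXA, 52.4% HOXB, 3.02% HOXD and 66.2% posterior, and under the TWIST1 shRNA label 20.7% HOXA, 74.0% HOXB and 48.0% posterior. Without the highest member, HOXA, HOXB, HOXC, HOXD and posterior members held 2.08%, 75.7%, 15.2%, 6.97% and 33.3% in MDST8 WT. They held 47.2%, 46.5%, 1.1%, 5.23% and 45.4% under the LoVo shRNA control label and 22.9%, 69.3%, 5.28%, 2.54% and 23.3% under the TWIST1 shRNA label, so HOXA passed HOXB in the former.

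Promoters with a listed peak fell from 31 to 15 in MDST8 with a window of 1000 bp, to 12 at p of at most 0.001 and to 0 at q of at most 0.05. In LoVo they fell from 23 to 11, 3 and 0. Members under the count filter were too low to test, and a member at 0 counts cannot be told from one below 3 counts per library.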
